A study of Mus musculus with 25 samples.

Results

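The mevalonate arm of cholesterol synthesis is described here through 7 genes, Acat2, Hmgcs1, Mvk, Pmvk, Mvd, Idi1 and Fdps. Their enzymes act on the route from acetyl-CoA to farnesyl diphosphate, but the 7 do not cover every step of it. These genes were found by symbol among the 37085 symbols of the deposited count table, each on 1 row. All 7 were among the 11869 genes tested. The measurement was sequencing of the 3' ends of polyadenylated RNA in 25 libraries of hepatocytes, the main cells of the liver, from C57BL/6 mice. The mice had a NASH-inducing diet for 1, 2, 3, 4, 5 or 6 weeks, with 4, 3, 4, 3, 3 and 3 libraries, or a normal diet (ND, 0 weeks on the NASH diet), with 5 libraries. NASH is non-alcoholic steatohepatitis, a fatty liver with inflammation, and the series asks how the transcripts of hepatocytes differ with the length of the diet. Hepatocytes were isolated by collagenase perfusion and low-speed centrifugation and then sorted by flow cytometry. What the diets contained, how the sort was gated, and how old the mice were and of which sex are details that the labels leave out. Libraries are numbered, but whether every one is from its own animal is not stated, and the p-values therefore cover library-to-library spread, which may be technical.

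Acetyl-CoA units are joined to HMG-CoA, which leads to mevalonate, and mevalonate is phosphorylated and decarboxylated to isopentenyl diphosphate, the building block of all isoprenoids. Units are then joined to farnesyl diphosphate, where the route to squalene and cholesterol parts from the routes to prenylated proteins, dolichol, ubiquinone and haem A. In liver these genes are textbook targets of the transcription factor SREBP2 (gene Srebf2), which is held in the endoplasmic reticulum by Scap and Insig proteins when sterols are plentiful.

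All 7 genes fell in the NASH-diet libraries, and all were already lower at week 1. Averaged over the 6 weeks and set against ND, the log2 fold changes were -3.96 ± 0.41 for Idi1, -2.76 ± 0.19 for Mvd, -2.67 ± 0.15 for Fdps, -2.26 ± 0.19 for Hmgcs1, -2.10 ± 0.16 for Pmvk, -1.62 ± 0.20 for Mvk and -1.01 ± 0.10 for Acat2 (SE; edgeR quasi-likelihood test). Acat2, the entry step, stood about 2.02-fold lower, while Fdps, the last step, was 6.39-fold lower. The Benjamini-Hochberg adjusted p of edgeR lay between 1.08e-10 (Fdps) and 9.25e-06 (Mvk), and all 7 were called lower at an adjusted p under 0.05, where 8.87% of all tested genes were. The median over the 7 was -2.26 on the log2 scale, against -0.02 over all tested genes (0.17 with scaling by library size alone). Idi1 passed the filter on low counts only through ND libraries, so its place among the 7 called is no support for the count. In a bulk library, fewer cells of a type and less RNA per cell cannot be told apart.

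At week 1 of the diet, 7 of the 7 genes were called lower by edgeR, against 0.977% of all tested genes. The same count was 7 at week 2 (background 0.657%), 6 at week 3 (0.607%), 7 at week 4 (2.86%), 7 at week 5 (16.3%) and 7 at week 6 (10.5%). Idi1, kept by the filter through ND libraries alone, is in each of these weekly counts and is no support for them. Mvk at week 3 was the exception, with a log2 fold change of -1.19 ± 0.30 and an edgeR adjusted p of 0.0573. DESeq2 called it lower (adjusted p 0.0127). None of the 7 was called higher in any week, where 0.219%, 0.227%, 0.244%, 5.44%, 19.1% and 16.3% of all tested genes were at weeks 1 to 6, and 11.1% in the mean of the weeks. Scaling by library size alone left the counts of members at 7, 7, 6, 7, 7 and 7, while the genes lower among all tested went to 82, 58, 53, 150, 365 and 231 at weeks 1 to 6, against 116, 78, 72, 339, 1929 and 1246 with composition scaling. For the mean of the weeks, composition scaling gave 1318 genes higher and 1053 lower, and library size alone 2494 higher and 295 lower. When only both compared groups were fitted, the count fell to 5 of the 7 at week 1 (Mvk and Idi1 lost), 4 at week 2 and 3 at week 3. Calls over all genes fell as well: 98 of 10397, 38 of 10506 and 40 of 10229 tested genes were lower at weeks 1 to 3. Calls at weeks 4 to 6 also depended on a term for markers of other liver cells, given with those markers.

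**Figure D1:**
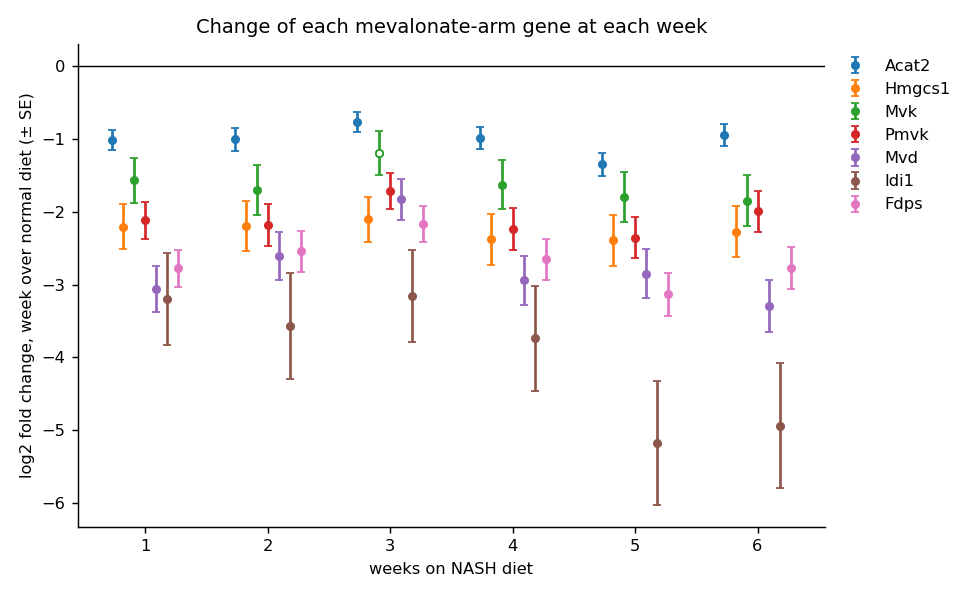
Log2 fold change (vertical axis) of each mevalonate-arm gene at 1 to 6 weeks of NASH diet (horizontal axis) over normal diet, with bars of 1 SE from the edgeR fit and an open point where the adjusted p was 0.05 or more. Every point lies below 0, Acat2 is nearest to 0 in every week (-1.35 to -0.77), and the 1 open point is Mvk at week 3.

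The week libraries lay wholly below the ND libraries for 5 of the 7 genes at week 1, where 2.85% of all tested genes did so. That count was 5 at week 2 (3.76% of all genes), 5 at week 3 (3.19%), 6 at week 4 (6.65%), 7 at week 5 (18.2%) and 6 at week 6 (10.6%). Idi1, kept by the filter through ND libraries alone, is in the week 5 count and is no support for it. For Hmgcs1, Pmvk, Mvd, Fdps and Acat2, all 20 NASH-diet libraries were lower than the lowest of the 5 ND libraries, a separation that 0.666% of all tested genes showed. Mvk had 15 of 20 NASH-diet libraries below the lowest ND library, and Idi1 had 9 of 20.

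The stretch before the start of transcription is shown for 3 of the genes because they differ in the motifs they hold. Hmgcs1 holds all 3 motifs searched, Mvk holds the most CCAAT boxes, and Acat2 holds no CCAAT box. Whether the motifs relate to the size of the change was not tested. The genes that changed most, Idi1, Mvd and Fdps, are not among the 3. The sequences are the 250 bases before the start in RefSeq on GRCm38.p6, a build other than that of the counts, at chr13:119690101-119690350 (+ strand) for Hmgcs1, chr5:114444019-114444268 (+) for Mvk and chr17:12960726-12960975 (- strand) for Acat2. Each reads 5′ to 3′ on the strand of the gene, and capitals mark the motifs on either strand.
Hmgcs1: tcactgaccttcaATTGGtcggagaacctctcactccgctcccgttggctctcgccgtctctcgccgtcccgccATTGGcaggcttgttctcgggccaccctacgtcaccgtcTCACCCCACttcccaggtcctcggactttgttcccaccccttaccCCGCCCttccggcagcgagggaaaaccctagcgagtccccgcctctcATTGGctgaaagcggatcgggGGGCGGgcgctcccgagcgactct
Mvk: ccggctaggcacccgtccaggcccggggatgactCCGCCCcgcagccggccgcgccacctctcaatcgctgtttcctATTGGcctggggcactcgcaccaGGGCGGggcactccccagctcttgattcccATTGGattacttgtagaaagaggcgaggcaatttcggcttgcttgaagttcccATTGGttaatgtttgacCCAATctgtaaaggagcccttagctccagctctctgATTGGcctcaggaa
Acat2: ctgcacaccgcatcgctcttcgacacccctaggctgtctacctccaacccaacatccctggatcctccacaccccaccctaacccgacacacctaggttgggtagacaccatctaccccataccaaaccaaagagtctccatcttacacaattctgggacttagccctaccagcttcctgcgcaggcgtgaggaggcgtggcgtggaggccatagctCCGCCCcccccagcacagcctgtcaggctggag
The motifs were the sterol regulatory element TCACNCCAC, which SREBP proteins bind, the CCAAT box (CCAAT), bound by NF-Y, and the GC box (GGGCGG), bound by Sp1-type factors, searched on both strands with no overlap between them. In the printed stretches Hmgcs1 held 1 sterol regulatory element (TCACCCCAC, first base at -137 from the start), 3 CCAAT boxes and 2 GC boxes, Mvk 5 CCAAT boxes and 2 GC boxes, and Acat2 0 CCAAT boxes and 1 GC box. Over the window of 250 bases before to 50 after the start, a promoter was listed for 6 of the 7 members (not Fdps). Of these 6, 1 held the sterol regulatory element, 5 a CCAAT box and 5 a GC box, against 1.24%, 37.4% and 35.7% of 32851 mouse promoters. A gene was counted if any of its listed promoters held the motif, while the shares are per promoter, so the units differ. Pmvk had 2 listed promoters, and its CCAAT box was in promoter 1 alone. In the same window, the squalene arm downstream had the 3 motifs in 0, 9 and 9 of its 9 listed genes. These letter matches describe the window and do not show that a factor is bound there. Only 1 letter string per motif was searched, so a missing match does not show that such an element is missing.

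Acat2 encodes the cytosolic thiolase that joins 2 molecules of acetyl-CoA to acetoacetyl-CoA (it is not the sterol acyltransferase that shares the abbreviation). In CPM (counts scaled to library size, with edgeR's correction for library composition), it stood at 74.9, 62.4, 50.5, 66.0 and 86.8 in ND libraries 1 to 5. It stood at 33.1, 33.4, 31.2 and 37.1 in week 1 libraries, 30.6, 34.9 and 35.8 in those of week 2, and 30.2, 42.0, 46.0 and 41.1 in those of week 3. The values were 30.6, 36.7 and 35.7 in week 4 libraries, 29.8, 24.7 and 25.4 in those of week 5, and 29.4, 40.1 and 36.2 in those of week 6. The highest NASH-diet library, 1 of week 3, remained below the lowest ND library. The means ran from 39.8 ± 6.75 at week 3 (SD, n = 4) through weeks 6, 4, 2 and 1 to 26.6 ± 2.72 at week 5 (n = 3), against 68.1 ± 13.6 in ND (n = 5). Only the lowest neighbours in that order, weeks 1 and 5, had libraries that did not overlap. The log2 fold change over ND was between -1.35 ± 0.16 at week 5 and -0.77 ± 0.14 at week 3 (SE; edgeR adjusted p 2.16e-06 and 0.00276). At week 3 the adjusted p of edgeR was 0.0911 when only both groups were fitted and 0.0629 without ND libraries 1 and 5. Acat2 has a close paralog, Acat3, and the labels do not say how reads matching both were counted, so both values are uncertain to that extent.

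**Figure D2:**
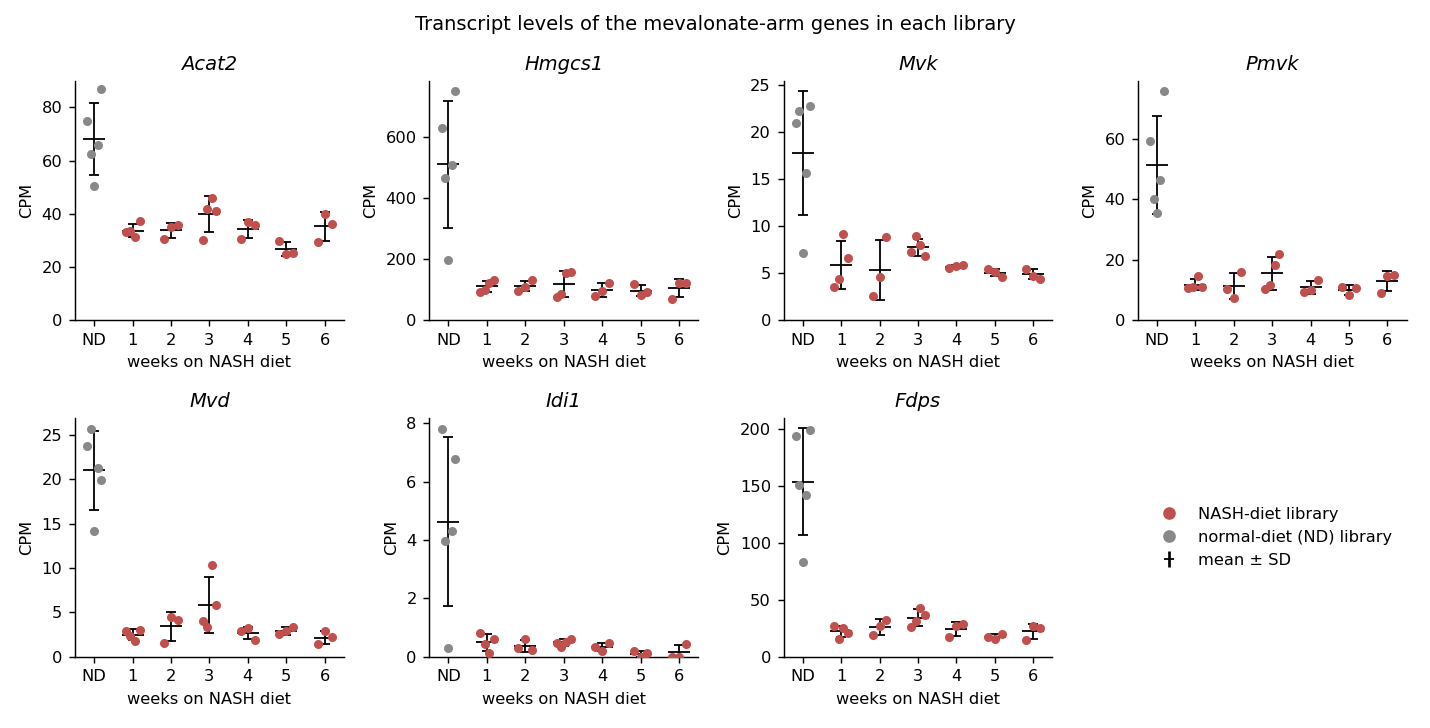
CPM (vertical axis, 1 scale per gene) of each mevalonate-arm gene in each library, by weeks of NASH diet (horizontal axis, ND is normal diet); points are libraries, and the bars give the mean and SD of a group. NASH-diet points of Hmgcs1, Pmvk, Mvd, Fdps and Acat2 lie below every ND point, while those of Mvk and Idi1 reach the level of the lowest ND library.

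Hmgcs1 encodes the cytosolic HMG-CoA synthase, the next step. Its levels were 631, 465.9, 197, 510.1 and 750.5 CPM in ND libraries 1 to 5. They were 92.0, 97.3, 122 and 130.1 in week 1 libraries, 96.8, 108 and 130.2 in those of week 2, and 76.8, 86.9, 154 and 156 in those of week 3. Weeks 4 to 6 gave 78.1, 94.5 and 122 in week 4 libraries, 117, 81.6 and 92.1 in those of week 5, and 70.8, 123 and 123 in those of week 6. Every NASH-diet library was below ND library 3, which itself lay far below the other 4 ND libraries. Week means lay between 97.0 ± 18.4 CPM (week 5, SD, n = 3) and 118 ± 42.5 (week 3, n = 4), against 511 ± 208 in ND (n = 5). Ordered by mean, weeks 3, 2, 1, 6, 4 and 5 each overlapped the next and differed from it by less than an SD. The log2 fold changes at the 6 weeks were -2.21 ± 0.31, -2.19 ± 0.35, -2.11 ± 0.31, -2.38 ± 0.35, -2.40 ± 0.35 and -2.28 ± 0.35 (SE), with edgeR adjusted p between 3.77e-05 and 0.00188. With only both groups fitted, the adjusted p of edgeR for Hmgcs1 was 0.0611 at week 2 and 0.0853 at week 3.

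Mvk and Pmvk encode the kinases that add a phosphate each to mevalonate in turn. Mvk stood at 21.0, 22.2, 7.16, 15.6 and 22.8 CPM in ND libraries 1 to 5. It had 3.51, 4.34, 9.20 and 6.57 in week 1 libraries, 2.57, 4.64 and 8.86 in those of week 2, and 7.20, 8.96, 7.96 and 6.83 in those of week 3. It had 5.55, 5.71 and 5.83 in week 4 libraries, 5.45, 5.12 and 4.63 in those of week 5, and 5.46, 4.74 and 4.41 in those of week 6. ND library 3 lay within the range of weeks 1 to 3, and the libraries of weeks 4 to 6 were all below it. Mean levels were 5.90 ± 2.55, 5.36 ± 3.21, 7.74 ± 0.939, 5.70 ± 0.139, 5.06 ± 0.408 and 4.87 ± 0.533 CPM at weeks 1 to 6 (SD), against 17.8 ± 6.58 in ND (n = 5). The order of the weeks was 3, 1, 4, 2, 5 and 6, with each overlapping the next. The log2 fold change was -1.57 ± 0.31 at week 1 (SE; edgeR adjusted p 0.00556), -1.70 ± 0.34 at week 2 (adjusted p 0.011) and between -1.63 ± 0.33 and -1.85 ± 0.35 at weeks 4 to 6. The call at week 1 was lost when only both groups were fitted (edgeR adjusted p 0.0887) and without ND libraries 1 and 5 (0.0698). The call at week 2 was lost without week 2 library 1 (edgeR adjusted p 0.117) or library 2 (0.0665). Week 3 was called by edgeR without ND library 3, at a log2 fold change of -1.40 and an adjusted p of 0.00337. It was also called by edgeR without week 1 library 3 (adjusted p 0.043), week 2 library 1 (0.028) or week 2 library 3 (0.0257). DESeq2 called it with all libraries (adjusted p 0.0127), so the missing call at week 3 lay close to the threshold.

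Pmvk stood at 59.3, 40.0, 35.4, 46.2 and 75.6 CPM in ND libraries 1 to 5. In NASH-diet libraries its values were 10.5, 10.98, 14.6 and 10.8 in week 1 libraries, 10.1, 7.42 and 15.9 in those of week 2, and 10.2, 11.6, 18.1 and 21.9 in those of week 3. Those of the later weeks were 9.25, 9.94 and 13.3 in week 4 libraries, 10.99, 8.21 and 10.7 in those of week 5, and 9.05, 14.7 and 15 in those of week 6. No NASH-diet library came near the lowest ND library, the highest being 21.9 CPM in a week 3 library. By mean, weeks 3, 6, 1, 2, 4 and 5 followed each other, from 15.4 ± 5.48 (SD, n = 4) to 9.96 ± 1.53 CPM (n = 3), against 51.3 ± 16.3 in ND (n = 5), and each overlapped the next. The log2 fold change over ND lay between -2.35 ± 0.29 at week 5 and -1.72 ± 0.25 at week 3 (SE), with edgeR adjusted p of 5.24e-06 and 0.000381.

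Mvd encodes the decarboxylase that makes isopentenyl diphosphate. Its ND values were 23.8, 25.7, 14.2, 21.3 and 19.9 CPM in libraries 1 to 5. The NASH-diet values were 2.88, 2.31, 1.78 and 3.06 in week 1 libraries, 1.57, 4.48 and 4.19 in those of week 2, and 4.00, 3.34, 10.3 and 5.83 in those of week 3. They were 2.94, 3.25 and 1.90 in week 4 libraries, 2.53, 2.85 and 3.33 in those of week 5, and 1.42, 2.87 and 2.21 in those of week 6. All NASH-diet libraries were below all ND libraries, and the 3rd and 4th libraries of week 3 were the highest of the 20. A NASH-diet library held 11 to 61 counts of Mvd and an ND library 91 to 158. Means were 2.51 ± 0.576, 3.42 ± 1.60, 5.88 ± 3.15, 2.697 ± 0.705, 2.90 ± 0.401 and 2.17 ± 0.729 CPM at weeks 1 to 6, against 21.0 ± 4.40 in ND (SD). Ordered by mean, weeks 3, 2, 5, 4, 1 and 6 each overlapped the next. At week 6 the log2 fold change was -3.29 ± 0.36 and at week 3 it was -1.83 ± 0.28 (SE; edgeR adjusted p 2.52e-06 and 0.000491).

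Idi1 encodes the isomerase that turns isopentenyl diphosphate into dimethylallyl diphosphate, and it gave the fewest counts. ND libraries 1 to 5 held 43, 23, 2, 32 and 31 counts (7.80, 3.97, 0.311, 4.31 and 6.79 CPM). Week 1 libraries held 5, 3, 1 and 4 counts, those of week 2 2, 4 and 2, and those of week 3 3, 2, 3 and 5. Week 4 libraries held 3, 2 and 4 counts, those of week 5 2, 0 and 1, and those of week 6 0, 0 and 3. Thus 3 NASH-diet libraries had 0 counts, no NASH-diet library had more than 5, and ND library 3, with 2 counts, lay within the range of the NASH-diet libraries. Idi1 passed the filter on low counts through 4 ND libraries alone, so a gene kept in this way had to differ between the diets. Mean levels were 0.495 ± 0.281, 0.381 ± 0.206, 0.490 ± 0.111, 0.333 ± 0.140, 0.104 ± 0.0980 and 0.147 ± 0.255 CPM at weeks 1 to 6 and 4.63 ± 2.91 in ND (SD), each week overlapping the next in order of mean. Summed over libraries, week 1 held 13 counts and ND 131, and the rate in ND was 9.16 times that of week 1 (exact 95% interval 5.17 to 17.7). At week 5 (3 counts) that ratio of ND over the week was 39.8 (13.3 to 196), and at week 6 (3 counts) it was 33.7 (11.3 to 165). These intervals cover counting error only. The fitted log2 fold changes were -3.19 ± 0.63 at week 1 and -3.74 ± 0.71 at week 4 (SE; edgeR adjusted p 0.00566 and 0.00294), and limma voom made no call of Idi1 at weeks 1 to 4 (adjusted p 0.27, 0.317, 0.3 and 0.0776). At week 2 edgeR also lost the call without week 2 library 1 (adjusted p 0.111) or library 3 (0.0861).

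Fdps encodes farnesyl diphosphate synthase, the branch point. It stood at 194, 150.9, 83.0, 142 and 198 CPM in ND libraries 1 to 5. Its NASH-diet values were 27.0, 15.9, 25.4 and 21.2 in week 1 libraries, 19.0, 27.2 and 32.3 in those of week 2, and 25.9, 31.2, 43.2 and 36.5 in those of week 3. Later they were 17.6, 26.6 and 28.8 in week 4 libraries, 17.4, 15.2 and 19.7 in those of week 5, and 15.1, 27.3 and 25.1 in those of week 6. Every NASH-diet library lay below every ND library, the highest, in week 3, at 43.2 CPM and the lowest ND library at 83. Means by week were 22.4 ± 4.96, 26.2 ± 6.72, 34.2 ± 7.37, 24.3 ± 5.91, 17.4 ± 2.25 and 22.5 ± 6.54 CPM, against 154 ± 46.7 in ND (SD). The order was weeks 3, 2, 4, 6, 1 and 5, and each overlapped the next, though the means of weeks 3 and 2 differed by more than the larger SD. Fdps ranked 2nd of 11869 genes by p in the mean of the weeks against ND. Its log2 fold change was -3.13 ± 0.29 at week 5 and -2.16 ± 0.25 at week 3 (SE; edgeR adjusted p 4.79e-07 and 1.91e-05).

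Within the NASH diet the highest week mean was 4.74 times the lowest for Idi1, 2.71 times for Mvd and 1.96 times for Fdps, and 1.22 to 1.59 times for the other 4 genes. The ratio for Idi1 rests on few counts, 13 in all at week 1 (mean 0.495 CPM) and 3 at week 5 (0.104 CPM). For none of the 7 was a linear slope over weeks 1 to 6 called by edgeR, DESeq2 or limma voom, where edgeR called 14.9% of all tested genes lower and 18.9% higher with time. One gene, Idi1, had an unadjusted p under 0.05 in edgeR, with a slope of -0.40 ± 0.19 log2 units per week (SE, adjusted p 0.103). Its slope was called by edgeR without ND library 3 (adjusted p 0.0363) or without week 6 library 3 (slope -0.85, adjusted p 0.0229). The other slopes lay between -0.08 (Mvd) and -0.01 (Pmvk) per week, none of them called, and those of Hmgcs1, Pmvk and Acat2 turned positive with scaling by library size alone (0.01, 0.04 and 0.02). Any difference among the 6 weeks was called for 1 of the 7, Mvd (edgeR adjusted p 0.0234), where 23.1% of all genes were called. For Fdps and Acat2 the adjusted p of edgeR in that test was 0.124 and 0.13. For 6 of the 7 genes week 3 had the highest mean of the 6 weeks, and for 5 of the 7 week 5 had the lowest, but with scaling by library size alone these counts were 4 and 3. The call for Mvd rested on week 3: its edgeR adjusted p was 0.191 without week 3 library 3 and 0.0584 without week 3 library 4. Leaving out ND library 3 added Fdps (edgeR adjusted p 0.0453), and leaving out week 3 library 1 added Acat2 (0.0487).

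The ND libraries differed among themselves. ND library 3 was the lowest of the 5 ND libraries in 7 of the 7 genes. It had 7.23% of the ND median for Idi1, 34.1% for Mvk, 38.6% for Hmgcs1, 55.0% for Fdps, 66.6% for Mvd, 76.5% for Acat2 and 76.6% for Pmvk. Downstream in the squalene arm it was the lowest in 11 of 12 genes, at a median of 70.5% of the ND median. Its total was 7310440 counts, within the range of the other ND libraries (5281143 to 7985100), and the summed CPM of the 7 genes was 388 in it, against 771 to 1161 in the other ND libraries and 131 to 280 in the 20 NASH-diet libraries. Without it, the log2 fold changes of the mean of the weeks were -4.27 for Idi1, -2.47 for Hmgcs1, -1.83 for Mvk, -2.83 for Fdps, -2.88 for Mvd, -2.21 for Pmvk and -1.10 for Acat2. All 7 were called lower by edgeR in that fit, where 826 of 11816 tested genes were. Idi1, kept by the filter through ND libraries alone, is no support for that count. The coefficient of variation in ND was 62.8% for Idi1, 40.6% for Hmgcs1, 37.0% for Mvk, 31.8% for Pmvk, 30.4% for Fdps, 21.0% for Mvd and 20.0% for Acat2.

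**Figure D3:**
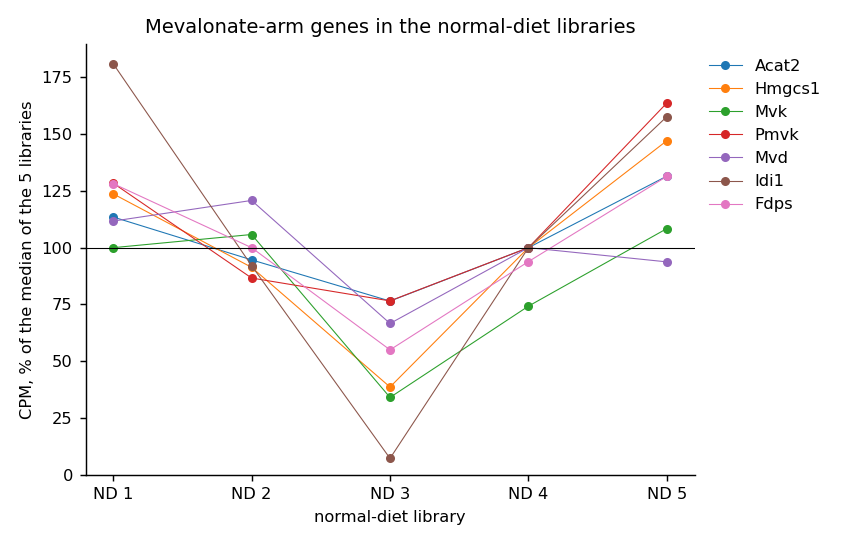
CPM of each mevalonate-arm gene in the 5 normal-diet libraries (horizontal axis), as a percent of the gene's median over them (vertical axis); lines join the points of a gene to guide the eye, since the libraries have no order. All 7 genes are at their lowest in ND library 3, from 7.23% for Idi1 to 76.6% for Pmvk.

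Ratios of counts within a library do not depend on how libraries are scaled, and they showed that the genes fell by unequal amounts. Pairs of the 6 genes other than Idi1 were compared between the 20 NASH-diet and 5 ND libraries by a two-sided exact permutation test over 53130 assignments, 15 pairs in all, chosen after the values were seen; the smallest p it can give is 3.76e-05. The ratio of Fdps to Acat2 averaged -0.50 ± 0.28 log2 units in NASH-diet libraries (SD, n = 20) and 1.13 ± 0.25 in ND libraries (n = 5), a difference of -1.63 (exact permutation p 3.76e-05, adjusted over the pairs 0.000188). For Mvd to Acat2 the difference was -1.79, for Pmvk to Acat2 -1.09 and for Hmgcs1 to Acat2 -1.17 (adjusted p 0.000188, 0.000188 and 0.000339), with 20, 20 and 18 of the 20 NASH-diet libraries below every ND library. Mvk to Acat2 differed by -0.56 (adjusted p 0.0271), a call lost when ND library 1, 2, 4 or 5 was left out (adjusted p 0.0517 to 0.109). By these ratios Acat2 fell less than Hmgcs1, Pmvk, Mvd and Fdps whichever library was left out.

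Among those 5, Mvk fell less than Fdps and Mvd: the ratio of Mvk to Fdps was higher by 1.07 and that of Mvk to Mvd by 1.23 log2 units in the NASH-diet libraries (adjusted exact permutation p 0.000339 and 0.00113; 18 of 20 libraries above every ND library for each). The ratio of Pmvk to Fdps was higher by 0.55 (adjusted p 0.00928), and that of Hmgcs1 to Fdps by 0.47 (adjusted p 0.0173, and 0.0642 without ND library 3). No difference was detected for Hmgcs1 to Pmvk, at 3.16 ± 0.24 in NASH-diet and 3.24 ± 0.43 in ND libraries (SD; adjusted p 0.57), or for Mvd to Fdps, at -2.99 ± 0.49 and -2.84 ± 0.33 (adjusted p 0.548). The other 4 pairs differed by 0.52 to 0.71 in size, with adjusted p of 0.0179 to 0.0539.

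**Figure D4:**
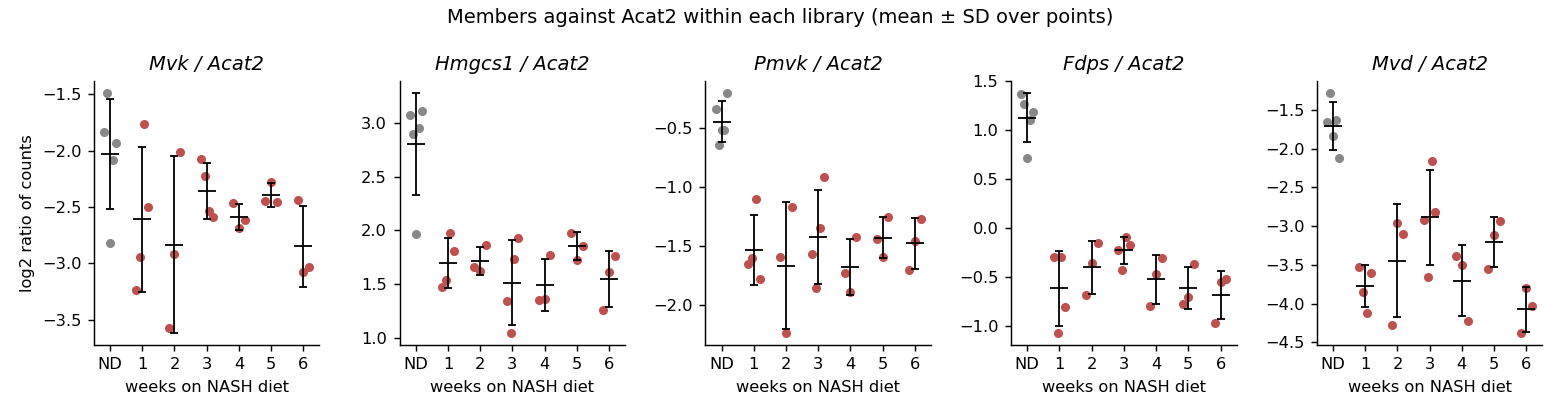
Log2 ratio of the counts of 5 mevalonate-arm genes to those of Acat2 in each library (vertical axis), by weeks of NASH diet (horizontal axis, ND is normal diet); points are libraries and bars the mean and SD of a group. For Fdps, Mvd and Pmvk every NASH-diet point lies below every ND point; for Mvk the groups overlap.

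The 7 genes varied together across libraries. Over all 25 libraries the Pearson correlation of log2 CPM between members had a median of 0.88 over the 21 pairs (0.78 to 0.96), a value that takes in the gap between the diets. Over the 20 NASH-diet libraries alone the median was 0.46 (-0.002 to 0.79), highest for Fdps with Acat2 (0.79) and Hmgcs1 with Pmvk (0.79). Taken within groups, after removing each group's mean, the median was 0.58 and the highest pair was Hmgcs1 with Acat2 (0.85). Pairs with Idi1 over the NASH-diet libraries had a median of 0.36, at the few counts given above. These values are descriptions over 25 or 20 libraries that share depth and scaling.

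Outside the 7, the genes with the most similar pattern were found by correlating each tested gene with the mean of the members' standardized log2 CPM over the 25 libraries. The 10 highest were Msmo1 (r = 0.98), Nsdhl (0.98), Dhcr7 (0.97), Cyp51 (0.96), Hsd17b7 (0.95), Rdh11 (0.95), Acss2 (0.94), Sqle (0.93), Lss (0.93) and Erg28 (0.92). Of these, 7 belong to the squalene-to-cholesterol arm and Acss2 to the supply of acetyl-CoA, while Rdh11, a retinol dehydrogenase, and Erg28 are in none of the lists. These r over 25 libraries take in the gap between the diets. Over the 20 NASH-diet libraries alone, the r of the 10 genes ran from 0.53 (Sqle and Lss) to 0.83 (Msmo1). Cyb5r3 and Mmab, outside the 10 and named after their values were seen, reached 0.88 there. Within groups the r of Msmo1, a C4-methyl sterol oxidase, was 0.89, and that of Sqle, squalene epoxidase, 0.39.

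The next enzymes on the route, from squalene to cholesterol, were lower as well. In the mean of the weeks against ND, 12 of the 12 squalene-arm genes were called lower by edgeR, at a median of -1.96. Those with the smallest p were Sqle at -3.83 ± 0.13, Nsdhl, a sterol dehydrogenase, at -2.50 ± 0.16, Dhcr7, which makes cholesterol from its last precursor, at -1.90 ± 0.13 and Cyp51, the lanosterol demethylase, at -2.39 ± 0.16 (SE; edgeR adjusted p 4.47e-17 to 5.43e-10). Idi1 at -3.96 and Sqle at -3.83 were thus the lowest of both arms in the main fit. Sqle stood at 3.36 to 5.54 CPM in the week means and 63.2 in ND. Their order depended on the fit: Idi1 lay at -4.045 to -2.828 over 7 alternatives and Sqle at -3.881 to -3.647 over 9. Idi1 was kept by the filter through ND libraries alone and rests on the few counts given above.

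The branches that draw on farnesyl diphosphate other than the sterol branch showed no call. In the same comparison 8.87% of all tested genes were called lower and 11.1% higher. With so few genes, the lack of calls does not set these branches apart from that share. Of 11 tested genes (12 listed) of these branches, which make geranylgeranyl, dolichol, ubiquinone and haem A precursors and prenylate proteins, 0 were called by edgeR in the mean of the weeks, with 3 at an unadjusted p under 0.05, and DESeq2 and limma voom called 0. The median log2 fold change was -0.215, and the largest sizes were -0.35 ± 0.22 for Fntb, a subunit of protein farnesyltransferase, and 0.35 ± 0.22 for Icmt (SE; the pair was chosen after the values were seen). Fntb and Icmt had ND means of 3.81 and 2.72 CPM, low levels at which a small change is hard to call. The difference between these branches and the mevalonate arm was not tested.

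Genes that feed acetyl-CoA or acetoacetyl-CoA into the pathway were split. Of 6 tested, edgeR called 4 lower: Acss2, the cytosolic acetyl-CoA synthetase (-2.05 ± 0.17), Acly, ATP citrate lyase (-0.99 ± 0.31), Slc25a1, the mitochondrial citrate carrier (-0.62 ± 0.12), and Acat3 (-0.26 ± 0.09; SE, adjusted p 2.75e-08, 0.0274, 0.00114 and 0.0487). The count was 2 lower and 2 higher with scaling by library size alone, 2 lower with limma voom and 2 lower without ND libraries 1 and 5. Acly was not called in these 3 settings, nor without the low-count filter or with a term for other cells' markers (log2 fold change -1.38 to -0.79, adjusted p 0.0545 to 0.384). That term also ended the call of Slc25a1 (-0.67, adjusted p 0.192). Acat3 was not called under any of the 9 alternatives tried for it (log2 fold change -0.25 to -0.02, adjusted p 0.0671 to 0.978). Acat1, the mitochondrial counterpart of Acat2, which serves ketone bodies rather than sterols, was at 0.29 ± 0.13 in the mean of the weeks against ND and not called (edgeR adjusted p 0.12). It was called higher with scaling by library size alone (0.47, edgeR adjusted p 0.0116).

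Of 8 tested genes (9 listed) of sterol control and uptake, edgeR called 6 lower and 1 higher in the mean of the weeks. Insig1 changed by -1.42 ± 0.18, Stard4, a cholesterol carrier, by -0.82 ± 0.12 and Scap by -0.48 ± 0.09 (SE; edgeR adjusted p 1.47e-05, 8.51e-05 and 0.000562). Srebf2, named for its role and not for its p, changed by -0.73 ± 0.17 (adjusted p 0.00459 in edgeR), but it was not called without ND libraries 1 and 5 (-0.42, adjusted p 0.209) or with a term for other cells' markers (-0.17, adjusted p 0.86). That term also ended the calls of Insig1 (-1.17, adjusted p 0.105), Stard4 (-0.78, adjusted p 0.124) and Scap (-0.24, adjusted p 0.556). The 1 that was higher was Mylip, an LDL receptor ubiquitin ligase named after its value was seen, at 1.58 ± 0.34 (edgeR adjusted p 0.00322); it was not called without ND libraries 1 and 5 (adjusted p 0.0629) or with a term for other cells' markers (0.40, adjusted p 0.748).

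**Figure D5:**
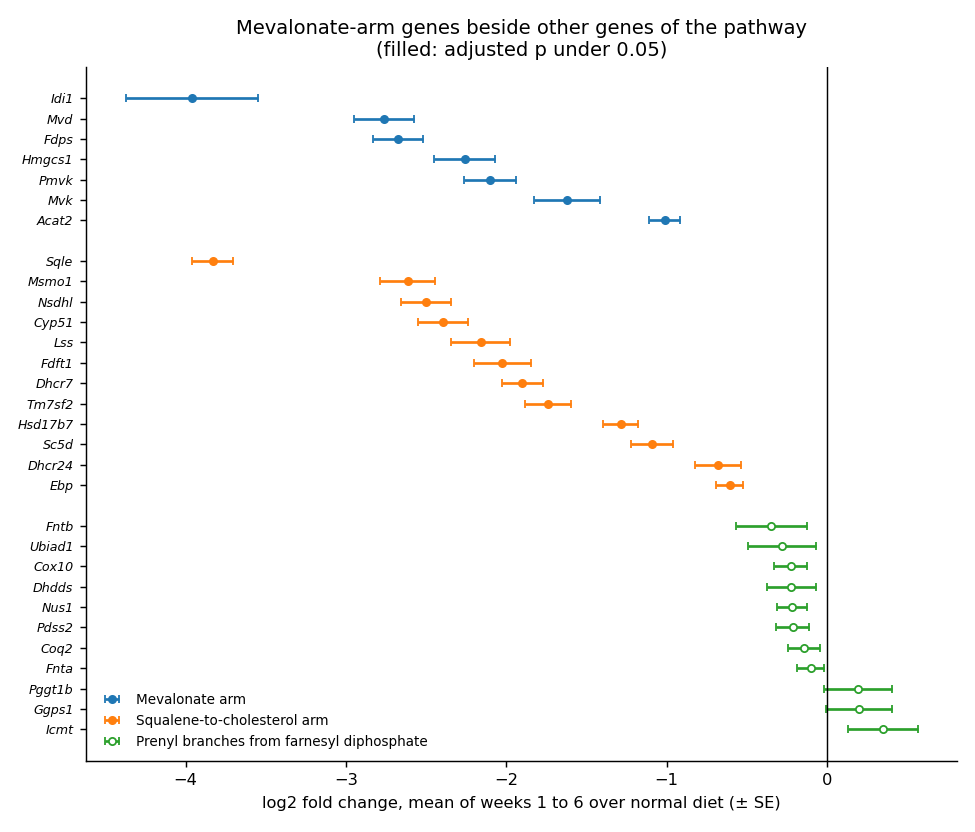
Log2 fold change of the mean of weeks 1 to 6 over normal diet (horizontal axis, bars of 1 SE from edgeR) for genes (rows) of the mevalonate arm, the squalene arm and the other prenyl branches; filled points had an adjusted p under 0.05. All 7 mevalonate-arm and 12 squalene-arm genes lie below 0 and are filled, while the 11 genes of the other prenyl branches lie near 0 and are open.

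The libraries carried the RNA of hepatocytes together with markers of other liver cells. Summed over the 9 hepatocyte markers found of 10 listed, CPM was 94060 to 106600 at week 1, 93830 to 119000 at week 2, 90230 to 106700 at week 3, 99170 to 112700 at week 4, 84360 to 92100 at week 5 and 87060 to 94370 at week 6, against 115300 to 125500 in ND. This sum overlapped ND at week 2 alone, and its part in the members' lower values was not tested. A score from the markers of Kupffer (12), sinusoidal endothelial (13) and stellate cells (12), the mean of the 3 lists' mean log2 CPM, was 4.15 ± 0.56, 4.46 ± 0.68, 4.24 ± 0.37, 5.00 ± 0.54, 6.03 ± 0.14 and 5.75 ± 0.17 at weeks 1 to 6, against 3.46 ± 0.76 in ND (SD). None of these markers was at 0 throughout a group. At weeks 1 to 3 the range of the score overlapped ND, and at weeks 4 to 6 it did not. Summed CPM of the Kupffer list was 347 to 912 at week 1 and 1433 to 1731 at week 6, against 116 to 624.6 in ND. For the endothelial list it was 344 to 632 and 1412 to 1807, against 200.7 to 769, and for the stellate list 117 to 342 and 490.3 to 828.8, against 78.0 to 160. For the 9 monocyte and macrophage markers it was 131 to 412 and 641 to 1017, against 47.3 to 383. Of the 6 cholangiocyte markers, Krt7 was at 0 in ND, and the list's summed CPM was 22.4 to 70.4 over all groups. Sox9 made up most of that sum, at a mean of 41.1 CPM in ND and 25.9 at week 5. The list's mean log2 CPM was 0.07 ± 0.17 in ND and higher in every week, from 0.43 ± 0.21 at week 4 to 0.80 ± 0.23 at week 5 (SD). The score was negatively correlated with each of the 7 genes over the 25 libraries (r -0.75 to -0.62) and within groups (r -0.45 to -0.23).

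With the score as a term in the edgeR model, 7, 5, 5, 3, 1 and 2 of the 7 genes were called lower at weeks 1 to 6. Among all 11869 tested genes, 96, 37, 55, 38, 11 and 20 were called lower in that model. Calls in either direction over all genes fell to 52, 11 and 24 at weeks 4, 5 and 6, against 985, 4197 and 3175 without the term. Fdps was the gene still called at week 5 (Mvd and Fdps at week 6; Pmvk, Mvd and Fdps at week 4). At week 5 the log2 fold changes that lost their call were -3.24 for Idi1, -2.50 for Mvd, -1.68 for Pmvk, -1.46 for Hmgcs1, -1.32 for Mvk and -0.88 for Acat2 (edgeR adjusted p 0.0791 to 0.613), against -5.18, -2.85, -2.35, -2.40, -1.80 and -1.35 without the term. In the mean of the weeks 6 of the 7 stayed called, of 47 genes called lower among all tested. Their log2 fold changes with the term were -2.57 for Mvd, -2.30 for Fdps, -2.83 for Idi1, -1.70 for Hmgcs1, -1.70 for Pmvk and -0.74 for Acat2 (edgeR adjusted p 3.6e-05 to 0.0328), and Mvk was at -1.34 (adjusted p 0.104). Idi1, kept by the filter through ND libraries alone, is in the count of 6 and in the week 1 count, and is no support for either. In the same model 9 of the 12 squalene-arm genes, 1 of the 8 genes of sterol control and 1 of the 6 genes of acetyl-CoA supply were called lower in the mean of the weeks. Since score and week move together at weeks 4 to 6, their parts cannot be told apart there.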

How the data were processed

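The authors deposited raw counts per gene symbol, as whole numbers, in a single table of 25 libraries made with the QuantSeq 3' FWD kit, per the labels' protocols. Per the submitters' processing notes, FastQC, cutadapt and STAR 2.7.1a were used with GRCm39; the counting tool and annotation are not named there. Totals were 5281143 to 10015751 counts per library, and no 2 libraries of a group agreed within sampling noise (chi-square per degree of freedom 5.67 to 33.5).

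Groups follow the labelled diet and weeks. Genes passed edgeR's filterByExpr (minimum count 10), leaving 11869. One robust quasi-likelihood model of 7 groups (edgeR 4.0.16 in R 4.3.3, TMM scaling, 18 residual degrees of freedom) gave 9 contrasts: each week against ND, the mean of the weeks against ND, the slope over weeks and any difference among weeks. P-values were adjusted by Benjamini-Hochberg over all 11869 genes and called under 0.05. Log2 CPM used a prior count of 2. DESeq2 1.42.0, limma voom (limma 3.58.1), other scalings, filters and model terms, and leaving out libraries were alternatives. The scripts were tested on simulated data. Within-library ratios, and their alternatives, were added after seeing the data. The 7 genes, the lists and the markers were chosen with earlier results of these data known. Other genes named are up to 4 per list with the smallest p in the mean of the weeks, and the 10 most like the members, unless stated. Some listed genes are counted but not reported here by name. Promoters are from RefSeq (GRCm38.p6), 6 of 7 genes matched.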

Additional observations from a re-analysis of the deposited data

Results flagged for a closer look

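Pmvk in week 1 library 3 stood at 14.55 CPM, apart from the other 3 libraries of that week, at 10.5 to 10.98 CPM. It was the 1 of 21 combinations of gene and group with 4 or 5 libraries in which a library lay so far from the rest, and chance gives about 1 in 20.

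Mvd differed among the 6 weeks of NASH diet (edgeR adjusted p 0.0234), with its highest mean at week 3 (5.88 ± 3.15 CPM, SD, n = 4) and its lowest at week 6 (2.17 ± 0.729 CPM, n = 3). In the same test 23.1% of all tested genes were called. The edgeR adjusted p was 0.191 without week 3 library 3 and 0.0584 without week 3 library 4. It was 0.056 with a block for replicate number and 0.635 with the marker score, and limma voom gave 0.128.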

How the results depend on the processing

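The members' log2 fold changes against ND kept their direction in every week under every alternative run. When a model held just the pair of groups compared, 4 members were called at week 2 and 3 at week 3. In those fits 38 and 40 of all tested genes were called lower. Adding the score of other cells' markers to the model left 3, 1 and 2 called at weeks 4, 5 and 6, and 0 for any difference among the weeks. Any difference among the weeks was also called for 0 members with limma voom and with the replicate block. Leaving out 1 library at a time gave 0 to 1 members for the slope and 0 to 2 for any difference.

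Slopes that changed sign were never called. With library size only they were 0.012 for Hmgcs1, 0.035 for Pmvk and 0.022 for Acat2 log2 units per week. With the marker score they were 0.097 for Hmgcs1, 0.008 for Mvk, 0.081 for Pmvk, 0.024 for Fdps and 0.043 for Acat2. For Pmvk the slope was 0.002 with the replicate block and -0.030 to 0.019 when libraries were left out in turn. The cause was not tested.

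Replicate numbers did not pair the libraries: same-numbered libraries of different groups correlated at -0.44 to 0.41 (median -0.005, 66 pairs), and 4 of 25 libraries correlated best with their own number. The block ended the calls of Mvk and Idi1 at week 2 (edgeR adjusted p 0.0681 and 0.0856) and moved the genes called for the mean of the weeks to 1399, against 2371. It also gave 59 genes at week 2 and 334 at week 4, against 105 and 985. Over all genes, DESeq2 called 267 and 198 at weeks 1 and 2, against 142 and 105 in edgeR, and 217 at week 3, where edgeR called 72 lower and 29 higher. The marker score left 49 genes at week 2, 62 in the mean of the weeks, 2 for the slope (4020 without it) and 0 for any difference (2747). Fitting a pair of groups gave 58, 45, 243 and 2094 genes at weeks 2, 3, 4 and 6. Without ND libraries 1 and 5, the counts were 84, 51, 54 and 198 at weeks 1 to 4 and 698 in the mean of the weeks. Leaving out 1 library moved week 4 to as few as 155 (week 4 library 1) and week 2 to 44 (week 2 library 1). Idi1 could not be tested without ND libraries 1 and 5 or under the filter of 5 CPM in 3 libraries. Depth limits Idi1 most, at 0 to 5 counts per NASH-diet library.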
